A study of Mus musculus with 4 samples.

Results

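The Wnt ligands, their receptors and their secreted antagonists were followed across the 4 heart samples of a study of mice lacking Mef2a, a transcription factor of striated muscle. The genes were taken by name: all Wnt, Fzd, Dkk (with Dkkl1), Sfrp and Rspo genes, with Frzb, Wif1, Lrp5 and Lrp6. The rule found 46 genes among the 18781 named genes of the array: 19 Wnt ligands, 4 R-spondins, 10 Frizzled receptors, 2 LRP co-receptors, 5 Dickkopf genes and 6 genes of the SFRP and WIF1 group. Each sample was RNA pooled in equimolar amounts from 7 mice aged 2 months, males and females mixed, and was hybridised to 1 Affymetrix array. The samples were atria of Mef2a-/- mice (KO atria), atria of Mef2a+/+ mice (WT atria), ventricles of Mef2a-/- mice (KO ventricles) and ventricles of Mef2a+/+ mice (WT ventricles). The comparisons ask what loss of Mef2a does in each chamber and how the chambers differ within each genotype.

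Wnt proteins are secreted, lipid-modified signals that bind Frizzled receptors. Together with the co-receptors LRP5 and LRP6 they stabilise beta-catenin, which then acts with TCF and LEF factors in the nucleus. Other Wnt signals use Frizzled, ROR or RYK receptors without beta-catenin and act on cell polarity and movement. SFRP proteins and WIF1 bind Wnt proteins outside the cell, Dickkopf proteins such as DKK1 bind the LRP co-receptors, and R-spondins strengthen the signal by protecting Frizzled receptors from removal. In the mouse heart these signals act in the forming chambers, the outflow tract, the valves and the epicardium, and the pathway is known to respond to injury in the adult. In cultured mouse muscle cells, MEF2A has been linked to Wnt signalling through microRNAs that target Sfrp2.

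With 1 array a group there was no replicate error, so every difference below is a description of 4 pooled samples and carries no test. Pooling also leaves the spread between mice unseen, and fewer cells of a type cannot be told apart from less RNA per cell. Values are log2 signals, a difference is a log2 ratio, and no gene's signal is set against another's because probe sets differ in brightness. A difference was counted as past the fold at 1.5-fold or more between genotypes, or 2-fold or more between chambers, where the brighter array of the pair was at or above 5.71, the median of all values. This floor is not a detection call. The Mef2a probe set gave 10.41 in KO atria against 10.32 in WT atria, and 10.34 in KO ventricles against 10.28 in WT ventricles. Which part of the gene was deleted is not given in the sources used here, so this signal does not check the genotype labels, and KO and WT are used as labelled. Markers matched the chamber labels: all 9 atrial cardiomyocyte markers were past 2-fold higher in atria in both genotypes, and 7 of 8 ventricular markers in the KO and 6 of 8 in the WT were past 2-fold lower in atria. The interquartile range of the KO atria array was 2.97, narrower than the 3.21 of WT atria, 3.19 of KO ventricles and 3.18 of WT ventricles. On that array dim genes read high: genes with a mean below the floor had a median ratio of KO to WT atria of 0.14, and 74.6% of them were positive. Centring the ratios with a lowess curve on signal level brought that median to 0.01, and centred ratios are given beside the atrial ones where they matter.

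Most of the Wnt genes were dim in adult heart. Of the 46 genes, 10 were at or above the floor on all 4 arrays, 9 on some arrays and 27 on none. Of all 18781 genes, 8924 were at or above it on all 4 arrays. The floor is the median of all values, so many genes of any kind lie below it. The 10 Wnt genes were Wnt5a, Fzd1, Fzd2, Fzd4, Fzd6, Fzd7, Lrp5, Lrp6, Sfrp1 and Frzb. The 9 with some arrays above the floor were Wnt9a, Wnt10a, Rspo1, Fzd3, Fzd9, Dkk3, Sfrp2, Sfrp5 and Wif1. Of the ligands 16 of 19 were below the floor on every array, while 5 of 10 Frizzled genes and both LRP co-receptors were above it on every array. Probe sets differ in brightness, so these counts do not compare amounts of RNA between roles. More of the genes were above the floor in atria, with 17 in KO atria and 15 in WT atria, than in ventricles, with 11 in KO ventricles and 12 in WT ventricles. Of the Wnt genes, 18 reached the floor on at least 1 atrial array and 13 on at least 1 ventricular array. Over all genes these counts were 10050 and 9712. The floor is 1 value for arrays whose medians ran from 5.66 in KO ventricles to 5.75 in KO atria. Wnt9a and Fzd9 reached it in KO atria alone, at 5.73. With each array centred on its own median, the Wnt counts were 16 and 13.

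**Figure D1:**
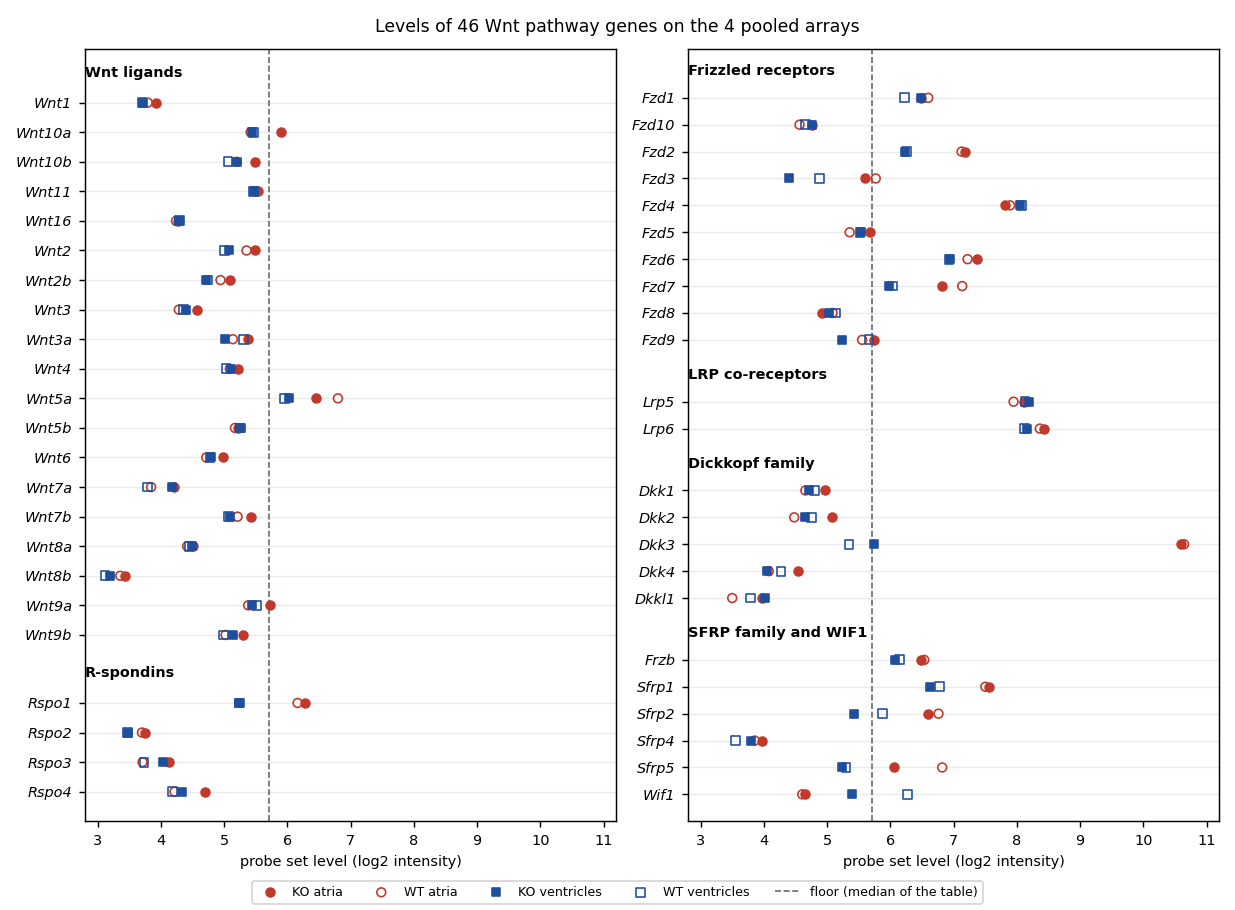
Log2 signal of the 46 Wnt genes by role, with 1 point for each of the 4 pooled arrays and the floor of 5.71 as a dashed line. Dkk3 stands at 10.59 and 10.64 in the KO and WT atria and at 5.73 and 5.34 in the KO and WT ventricles, and Wif1 is above the floor in WT ventricles alone.

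Between genotypes, 1 Wnt gene in each chamber was past the fold, and it was a secreted antagonist each time. In KO atria Sfrp5 was 1.71-fold lower than in WT atria, and it was the only one of the 18 Wnt genes bright enough to count there. Of all genes bright enough in this comparison, 1.02% were past the fold higher and 2.01% lower, and none of the Wnt genes was past it higher. In KO ventricles Wif1 was 1.84-fold lower than in WT ventricles, and it was the only one of 13 bright enough. There 0.515% of all genes were past the fold higher and 0.69% lower, and again no Wnt gene was higher. Wif1 reached the floor in WT ventricles alone. With the mean of the 4 arrays as the level it did not count, and no Wnt gene was past the fold in ventricles. Each count is 1 gene, so nothing is read from its share beside these. The median ratio of KO to WT over the 14 Wnt genes with a mean at or above the floor was -0.05 in atria and -0.01 in ventricles, against -0.04 and 0.00 over all genes of that brightness.

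Between chambers, 3 Wnt genes in each genotype were past the fold higher in atria, and 1 in the WT was lower. In WT hearts Dkk3, Fzd7 and Sfrp5 were past 2-fold higher in atria than in ventricles, and Wif1 was past 2-fold lower, among 16 bright enough. The shares over all genes were 3.89% higher and 2.21% lower. In KO hearts Dkk3, Rspo1 and Sfrp2 were past 2-fold higher in atria than in ventricles and none was lower, among 17 bright enough, where 3.46% of all genes were higher and 2.85% lower. The all-gene split in the KO, 350 higher and 288 lower, turned to 305 higher and 377 lower when each array was centred on its own median. Over all 46 genes the median ratio of atria to ventricles was 0.27 in the KO and 0.04 in the WT. Over all genes it was 0.04 in the KO and -0.02 in the WT. Most of the 46 are dim, and dim genes read high on the KO atria array. All genes with a mean from 4 to 5.5 had a median of 0.16 in the KO and -0.01 in the WT. With lowess centring the KO median was 0.17 over the 46 genes and 0.01 over all genes. Over the 14 Wnt genes with a mean at or above the floor, the uncentred median was 0.61 in the KO and 0.79 in the WT. All genes of that brightness had -0.05 in the KO and -0.01 in the WT. Some of the 14, such as Dkk3, Rspo1 and Sfrp5, reach that mean through their atrial arrays, so the filter itself favours atrial genes. Over the 10 Wnt genes at or above the floor on all 4 arrays, a choice made after seeing the data, the median was 0.42 in the KO and 0.38 in the WT. With a mean floor at the 75th percentile, which left 4 genes (Dkk3, Fzd4, Lrp5 and Lrp6), it was 0.093 in the KO and 0.035 in the WT. The median thus depends on which genes are counted, and Fzd4 and Lrp5 were lower in atria than in ventricles in both genotypes. In all, 6 of the 46 genes were past the fold in at least 1 of the 4 comparisons, and 40 in none.

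**Figure D2:**
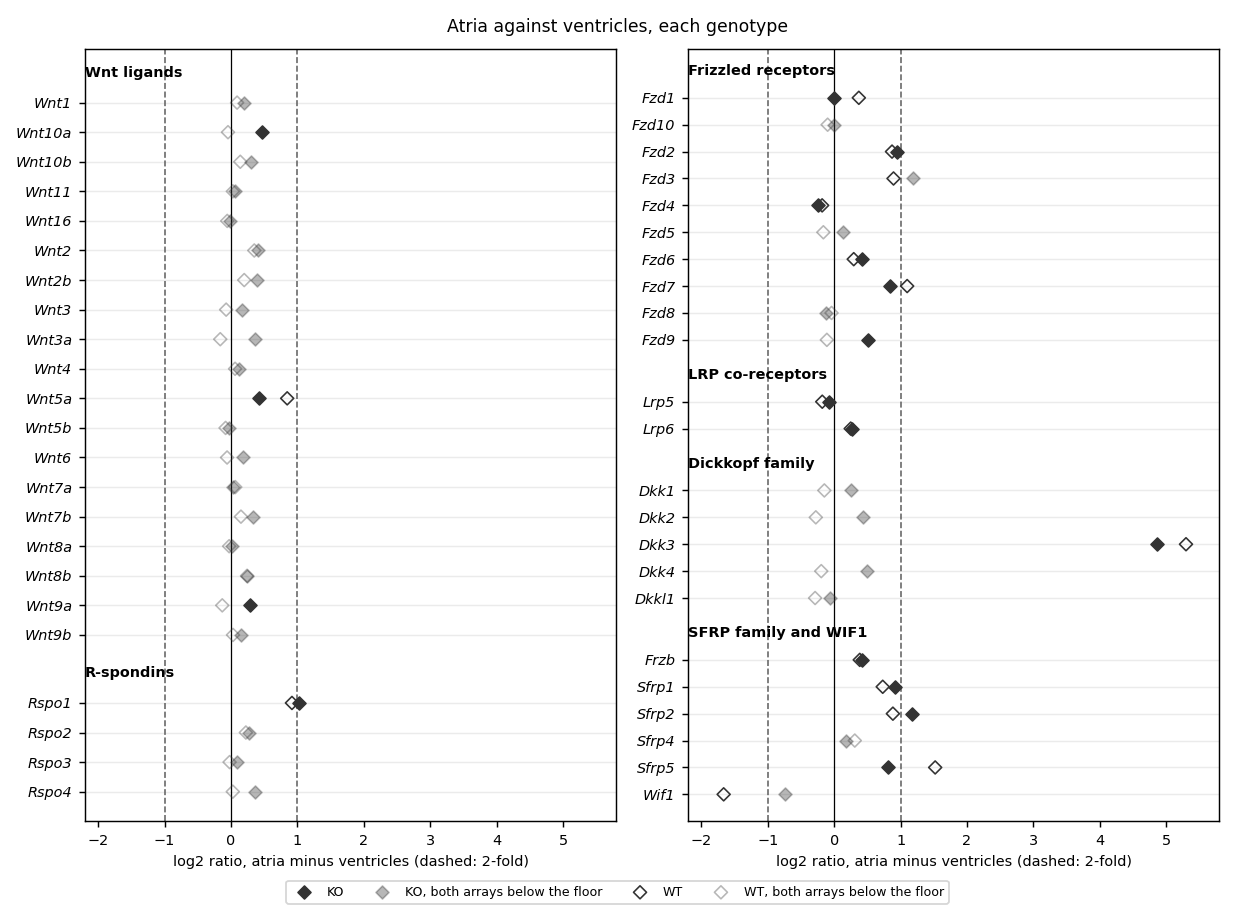
Ratio of atria to ventricles (log2) for the 46 Wnt genes by role, with 1 point for the KO pair of arrays and 1 for the WT pair, faded where both arrays were below the floor; dashed lines mark 2-fold. Dkk3 lies far to the atrial side at 4.85 in the KO and 5.30 in the WT, and Wif1 to the ventricular side at -0.74 in the KO and -1.66 in the WT.

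Among the ligands, Wnt5a, a signal best known for acting without beta-catenin, was the only one above the floor on all arrays. It read 6.45 in KO atria against 6.80 in WT atria, and 6.03 in KO ventricles against 5.95 in WT ventricles. The atrial ratio of KO to WT was -0.35 and the ventricular one 0.07, both short of 1.5-fold. The ratio of atria to ventricles was 0.42 in the KO and 0.85 in the WT, so the WT arrays stood further apart. Wnt10a, a ligand that acts through beta-catenin in skin and teeth, read 5.90 in KO atria against 5.42 in WT atria, and 5.44 in KO ventricles against 5.47 in WT ventricles. Wnt9a read 5.73 in KO atria against 5.38 in WT atria, and 5.45 in KO ventricles against 5.51 in WT ventricles. Both crossed the floor in KO atria alone, by a small margin, with ratios of 0.48 and 0.35 to WT atria that stayed under 1.5-fold. With lowess centring these ratios were 0.42 and 0.27.

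The remaining 16 ligands were below the floor on all 4 arrays, between 3.12 for Wnt8b in WT ventricles and 5.53 for Wnt11 in KO atria. They include Wnt11, which is needed for outflow tract formation in the mouse, and read 5.53 in KO atria, 5.49 in WT atria, 5.48 in KO ventricles and 5.46 in WT ventricles. Its 4 arrays lay within a narrow band. All 18 ligands with a mean below the floor had a positive ratio of KO to WT atria, with a median of 0.18. Of all genes with such a mean, 74.6% were positive, with a median of 0.14. After lowess centring, 12 of the 18 ligands were positive and the median was 0.07. Over all genes below the floor, 4718 of 9141 were then positive and the median was 0.01. In ventricles, 13 of the same 18 ligands were positive, with a median of 0.02, where 49.5% of all genes below the floor were positive. The largest ventricular ratio of a ligand was that of Wnt7a, 0.40, from 4.18 in KO ventricles and 3.78 in WT ventricles. Its atrial ratio was 0.36, or 0.19 with lowess centring. Both arrays of each pair were far below the floor.

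R-spondins were dim apart from Rspo1, which in the mouse is needed for ovary development. Rspo1 read 6.27 in KO atria against 6.16 in WT atria, and 5.24 in both KO ventricles and WT ventricles. The ratio of atria to ventricles was 1.03 in the KO, or 2.04-fold, and 0.92 in the WT, so the genotypes lay on either side of 2-fold with nearly the same value. In the KO the ratio went under 2-fold at 0.94 with median centring and at 0.96 with lowess centring. Rspo3, which acts in blood vessel development in the mouse, was below the floor throughout and read 4.13 in KO atria against 3.71 in WT atria, and 4.03 in KO ventricles against 3.73 in WT ventricles. Rspo4 read 4.70 in KO atria against 4.22 in WT atria, and 4.33 in KO ventricles against 4.19 in WT ventricles. Its atrial ratio was 0.48 and that of Rspo2 was 0.05, both below the floor. With lowess centring they were 0.31 for Rspo4 and -0.11 for Rspo2.

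Of the Frizzled receptors, Fzd7, Fzd2 and Fzd3 were higher in atria than in ventricles in both genotypes. Fzd7 read 6.82 in KO atria against 5.97 in KO ventricles, and 7.13 in WT atria against 6.04 in WT ventricles. That was 0.85 in the KO and 1.10, or 2.14-fold, in the WT, with 2-fold passed in the WT alone. Fzd2 read 7.18 in KO atria against 6.23 in KO ventricles, and 7.12 in WT atria against 6.25 in WT ventricles, which gave 0.95 in the KO and 0.87 in the WT. Both chamber ratios of Fzd2 fell short of 2-fold. Fzd3, which in the mouse acts with Fzd6 in planar polarity and axon growth, read 5.59 in KO atria against 4.40 in KO ventricles, and 5.77 in WT atria against 4.87 in WT ventricles. Its ratio was 1.19 in the KO, where both arrays were below the floor, and 0.89 in the WT.

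Other Frizzled genes differed less. Fzd4, a receptor for Wnt proteins and for Norrin in retinal vessels, read 7.81 in KO atria, 7.89 in WT atria, 8.05 in KO ventricles and 8.07 in WT ventricles. Its ratio of atria to ventricles was negative in both genotypes, at -0.24 in the KO and -0.18 in the WT. Fzd6 read 7.37 in KO atria, 7.22 in WT atria, 6.95 in KO ventricles and 6.92 in WT ventricles. Fzd1 read 6.48 in KO atria against 6.60 in WT atria, and 6.48 in KO ventricles against 6.23 in WT ventricles. The atrial ratio of KO to WT for Fzd1 was -0.12 and the ventricular one 0.26. Fzd9 had 5.73 in KO atria against 5.55 in WT atria, and 5.23 in KO ventricles against 5.66 in WT ventricles, all close to the floor. Fzd5, Fzd8 and Fzd10 were below the floor on all arrays. Over the 10 receptors, those below the floor included, the median ratio of KO to WT was -0.01 in atria and -0.02 in ventricles. No receptor was past 1.5-fold, among 7 bright enough in atria and 5 in ventricles. Of all genes 1.02% were past it higher and 2.01% lower in atria, and 0.515% and 0.69% in ventricles. Beside these shares, 0 of so few receptors is not a result about them.

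The LRP co-receptors differed little between any of the samples. Lrp5 read 8.11 in KO atria against 7.95 in WT atria, and 8.19 in KO ventricles against 8.13 in WT ventricles. Lrp6 read 8.43 in KO atria against 8.36 in WT atria, and 8.16 in KO ventricles against 8.11 in WT ventricles. All 4 ratios of KO to WT for these genes were positive and at most 0.16. Between chambers Lrp5 leaned to the ventricles, at -0.08 in the KO and -0.18 in the WT, and Lrp6 to the atria, at 0.27 in the KO and 0.25 in the WT.

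Of the Dickkopf genes, Dkk3 had the largest difference of all 46 genes. DKK3 is a divergent member of the family whose action on LRP co-receptors is less clear than that of DKK1. It read 10.59 in KO atria against 5.73 in KO ventricles, and 10.64 in WT atria against 5.34 in WT ventricles. This was a 28.9-fold higher signal in atria in the KO and 39.3-fold in the WT, and the WT ventricles array lay below the floor. Between genotypes the atrial ratio was -0.06 and the ventricular ratio 0.39, or 1.31-fold, with KO ventricles higher and both ventricular arrays next to the floor. Dkk1, Dkk2, Dkk4 and Dkkl1 were below the floor on all arrays. Dkk2 read 5.07 in KO atria against 4.48 in WT atria, and 4.64 in KO ventricles against 4.75 in WT ventricles. Its atrial ratio was 0.59, or 1.51-fold, which was not counted because both arrays were below the floor. With lowess centring it was 0.43. Dkk1 read 4.96 in KO atria against 4.66 in WT atria, and 4.71 in KO ventricles against 4.80 in WT ventricles. Dkk1, Dkk4 and Dkkl1 had atrial ratios of KO to WT of 0.31, 0.46 and 0.47, again among dim genes that read high on the KO atria array. With lowess centring these were 0.15, 0.29 and 0.31.

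The SFRP family and WIF1 held both genes that passed the fold between genotypes. Sfrp5, which in the mouse embryo marks progenitors at the venous pole of the heart, read 6.05 in KO atria against 6.82 in WT atria, and 5.24 in KO ventricles against 5.30 in WT ventricles. Its signal was thus lower in KO atria by 0.77 and in KO ventricles by 0.06, with both ventricular arrays below the floor. The atrial ratio was -0.75 with lowess centring. The ratio of atria to ventricles was 0.81 in the KO, short of 2-fold, and 1.52 in the WT, or 2.87-fold. In WT hearts Sfrp5 was thus past 2-fold higher in atria, and the KO atria value lay between that of WT atria and those of the ventricles. The genotype ratio in atria and the chamber ratio in the WT share the WT atria array, so they are not independent.

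Wif1, the Wnt inhibitory factor, had the opposite chamber pattern. It read 4.65 in KO atria against 5.39 in KO ventricles, and 4.61 in WT atria against 6.27 in WT ventricles. Of the 4 arrays, WT ventricles was the only one above the floor. The ratio of atria to ventricles was -0.74 in the KO and -1.66 in the WT, so the signal was 3.17-fold higher in ventricles than in atria in the WT. Between genotypes the ventricular ratio was -0.88 and the atrial ratio 0.04, which became -0.12 with lowess centring. When the mean of the 4 arrays was used as the level, Wif1 was below the floor and no Wnt gene was past the fold in ventricles. The genotype ratio in ventricles and the chamber ratio in the WT share the WT ventricles array, the only bright value of this gene.

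The bases upstream of Sfrp5 and Wif1 are shown because these were the 2 genes past the fold between genotypes and MEF2A is a DNA-binding factor. They are the 250 bases before the annotated start, from RefSeq on GRCm38.p6, with CpG in capitals. Sfrp5 lies at chr19:42202253-42202502 on the minus strand and Wif1 at chr10:121033754-121034003 on the plus strand.
Sfrp5: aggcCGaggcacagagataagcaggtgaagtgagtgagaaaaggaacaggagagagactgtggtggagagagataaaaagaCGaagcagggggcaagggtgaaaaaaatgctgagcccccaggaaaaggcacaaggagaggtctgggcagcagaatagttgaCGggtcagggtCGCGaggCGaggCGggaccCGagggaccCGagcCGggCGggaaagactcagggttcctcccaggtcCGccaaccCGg
Wif1: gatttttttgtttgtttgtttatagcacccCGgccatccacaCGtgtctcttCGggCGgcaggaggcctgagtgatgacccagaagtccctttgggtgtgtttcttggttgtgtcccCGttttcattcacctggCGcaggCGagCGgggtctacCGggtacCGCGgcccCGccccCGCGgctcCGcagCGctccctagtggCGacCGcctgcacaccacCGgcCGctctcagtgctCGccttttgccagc
The Sfrp5 stretch is 59.6% G and C with 13 CpG, and the Wif1 stretch 62.8% with 21 CpG, against medians of 52.4% and 6 over all annotated promoters. Windows of 250 bases before to 50 after the start were matched for 30 of the 46 genes, with 33 windows in all. The pattern CTANNNNTAG, taken as a rough MEF2 core on either strand, was in none of these 33 windows and in 3.69% of the 32851 windows of all genes. It allows any base at its middle positions and fixes both ends, so these are not rates of MEF2 sites. The TCF and LEF core CTTTGAT, on either strand, was in 2 of the 33, those of Wnt11 and Wnt5b, and in 3.73% of all windows. A match is a match of letters only, and its absence says nothing of sites elsewhere.

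The other SFRP genes leaned to the atria. Sfrp2 read 6.59 in KO atria against 5.42 in KO ventricles, and 6.76 in WT atria against 5.87 in WT ventricles. That was 1.17 in the KO, or 2.24-fold, and 0.88 in the WT. Between genotypes Sfrp2 had -0.17 in atria and -0.45 in ventricles, both short of 1.5-fold. Sfrp1 read 7.55 in KO atria against 6.63 in KO ventricles, and 7.50 in WT atria against 6.77 in WT ventricles, or 0.92 in the KO and 0.73 in the WT. Frzb, also called sFRP3, read 6.49 in KO atria against 6.07 in KO ventricles, and 6.53 in WT atria against 6.15 in WT ventricles. Its chamber ratios were 0.41 in the KO and 0.39 in the WT, and its ratios of KO to WT were -0.04 in atria and -0.07 in ventricles. Sfrp4 was below the floor on all arrays. Over the 6 genes of the SFRP and WIF1 group the median ratio of KO to WT was -0.00 in atria and -0.11 in ventricles. In ventricles 5 of these 6 were negative, and Wif1 was the only one past 1.5-fold. Of all 18781 genes 9208 were negative there, and 3 of the 5 Dickkopf genes.

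**Figure D3:**
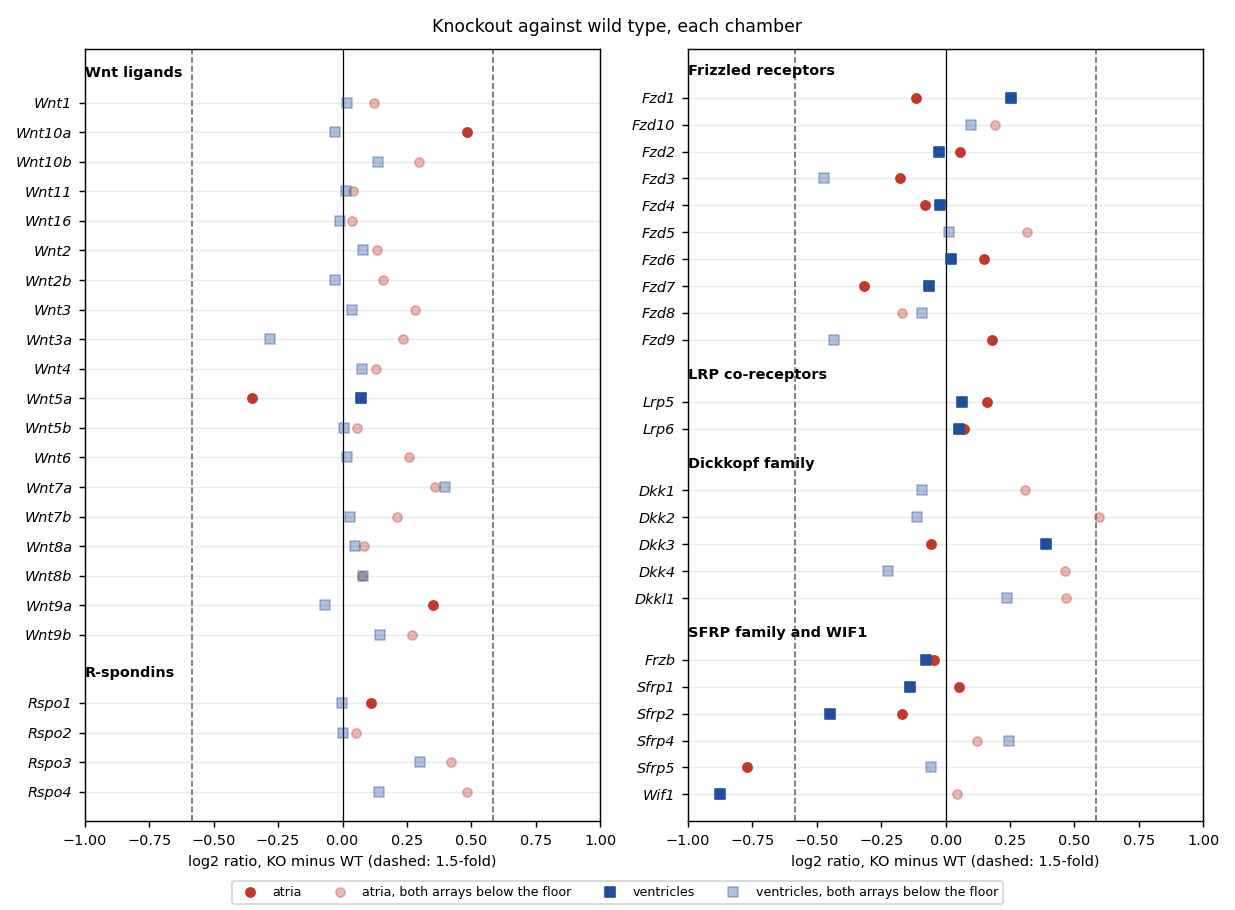
Ratio of KO to WT (log2) for the 46 Wnt genes by role, in atria and in ventricles, faded where both arrays were below the floor; dashed lines mark 1.5-fold. Sfrp5 is past the line in atria at -0.77 and Wif1 in ventricles at -0.88, and the faded Dkk2 point in atria is at 0.59.

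The ratios of KO to WT were also set against those of all genes of like brightness, in steps of 0.5 on the log2 scale. By construction 5% of all genes lie beyond each edge of the band from the 5th to the 95th percentile. In atria 3 of the 46 Wnt genes, or 6.52%, lay outside: Dkk2 and Wnt10a above, Sfrp5 below. In ventricles it was 8 of 46, or 17.4%: Dkk3, Fzd1, Rspo3 and Wnt7a above, Fzd3, Fzd9, Sfrp2 and Wif1 below. As many lay above as below, and apart from Wif1 all were short of 1.5-fold.

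**Figure D4:**
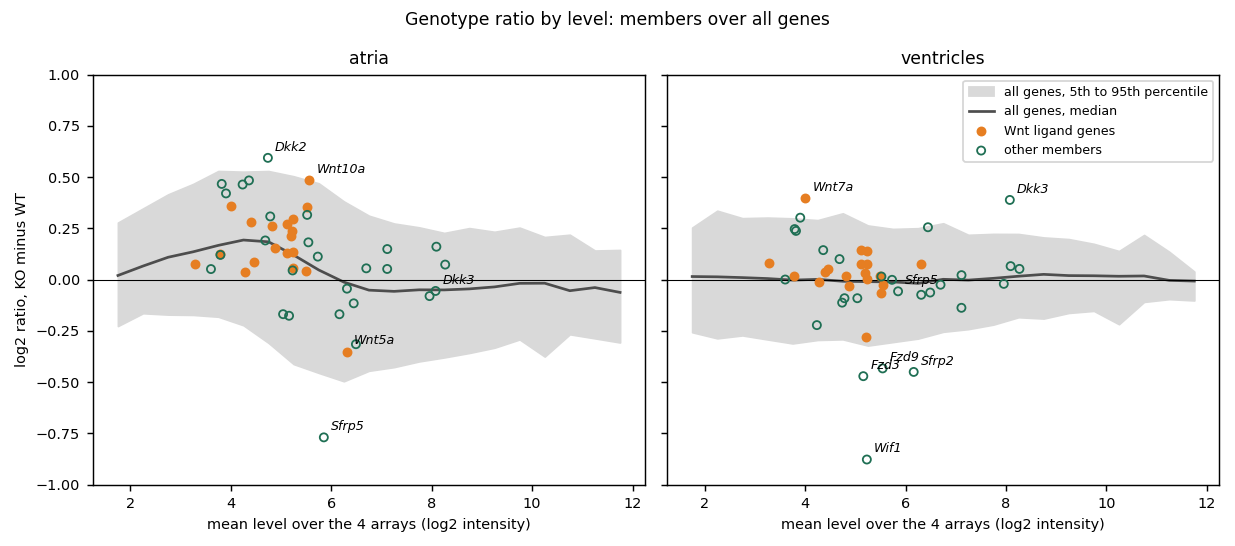
Ratio of KO to WT (log2) against the mean log2 signal of the 4 arrays, with the Wnt genes as points and the median and the band from the 5th to the 95th percentile of all genes by level, in atria and in ventricles. Below the floor the median of all genes lies above 0 in atria and near 0 in ventricles, and Sfrp5 lies below the band in atria and Wif1 in ventricles.

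Markers of heart cells also differed between genotypes. All 10 fibroblast markers were lower in KO atria than in WT atria, with a median of -0.44, and Pdgfra, Lum and Dpt were past 1.5-fold. Their summed intensity was 8140 in KO atria against 10960 in WT atria, and the list includes the collagen genes Col1a1, Col1a2 and Col3a1. In ventricles all 10 were lower in the KO as well, with a median of -0.17 and none past the fold, and summed to 5782 in KO ventricles against 6322 in WT ventricles. All 10 were above the floor on all arrays. Of all genes above it on all arrays, 41.7% had a positive ratio of KO to WT in atria, with a median of -0.04. In ventricles 51.8% of them were positive. Of all genes bright enough, 2.01% in atria and 0.69% in ventricles were past 1.5-fold lower. With lowess centring the atrial median of the 10 markers was -0.38. The 11 epicardial and mesothelial markers had a median of 0.01 between KO and WT atria, and summed to 1862 in KO atria against 1905 in WT atria. All 11 were above the floor in atria, and 5 of 11 in ventricles. In ventricles the 9 atrial cardiomyocyte markers had a median of -0.29, with 8 of 9 lower in the KO and Sln past 1.5-fold, and summed to 3779 in KO ventricles against 4209 in WT ventricles. Summed intensities, here and below, weigh the brightest probe sets most. Among the atrial markers Nppa read 11.22 in KO ventricles and 11.23 in WT ventricles. Among the fibroblast markers Dcn read 11.77 in KO atria and 12.04 in WT atria. Beyond these, Krt18 (0.60), Scx (0.98) and Acta2 (0.61) were past 1.5-fold higher in KO atria, and Kcnj2 (-0.78), Cnn1 (-1.29) and Retn (-1.07) lower. Retn reached the floor in WT atria alone, by a small margin, at 5.73 against 4.66 in KO atria. In KO ventricles Myh7 (0.99), Npr3 (0.68) and Scx (0.81) were past 1.5-fold higher and Fgf16 (-0.59) lower. The part of these lists and markers in the lower Sfrp5 and Wif1 signals was not tested.

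Several lists also moved with the chamber. Over all genes bright enough, 3.46% in the KO and 3.89% in the WT were past 2-fold higher in atria. The shares past 2-fold lower were 2.85% in the KO and 2.21% in the WT. Of all genes with a mean at or above the floor, 43.3% in the KO and 48.0% in the WT were higher in atria. Of the epicardial and mesothelial markers, 7 of 11 were past 2-fold higher in atria in each genotype, with summed intensities of 1862 in KO atria against 581 in KO ventricles, and 1905 in WT atria against 539 in WT ventricles. Fibroblast markers were higher in atria for 10 of 10 genes in both genotypes, with medians of 0.56 in the KO and 0.82 in the WT. Endocardial and valve markers were higher in atria for 7 of 8 genes in both genotypes, with medians of 0.53 in the KO and 0.52 in the WT, and Npr3 and Cdh11 were past 2-fold. Their summed intensity was 3884 in KO atria against 2128 in KO ventricles, and 4053 in WT atria against 2044 in WT ventricles. Smooth muscle and pericyte markers were lower in atria for 7 of 9 genes in the KO and 8 of 9 in the WT, with medians of -0.36 in the KO and -0.41 in the WT, while Cnn1 was past 2-fold higher in both. Endothelial, macrophage, adipocyte and neuronal lists had medians between -0.07 and 0.17. The endothelial genes went both ways. Vwf was past 2-fold higher in atria in both genotypes, at 1.88 in the KO and 1.73 in the WT. Kdr was lower in atria, at -0.79 in the KO and -0.70 in the WT. The part of these lists in the higher atrial signals of Dkk3, Fzd7, Sfrp2, Sfrp5 and Rspo1 was not tested.

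Further genes of the pathway were described from 6 lists. Between KO and WT atria none of their genes was past 1.5-fold. Between KO and WT ventricles Trabd2b, which encodes a protease that inactivates Wnt proteins, was the only one, at 7.49 in KO ventricles against 8.13 in WT ventricles, a ratio of -0.64. Trabd2b read 7.50 in KO atria against 7.74 in WT atria. No gene of the destruction complex list (16 genes) or of the list of common beta-catenin targets (14 of 15 genes named) was past the fold in any of the 4 comparisons. Beside the shares of all genes given above, 0 from lists of this size is not a result about these lists. Axin2, a feedback inhibitor often used as a readout of beta-catenin activity, read 5.59 in KO atria against 5.81 in WT atria, and 5.32 in both KO and WT ventricles. The median ratio of KO to WT over the targets was 0.09 in atria and 0.01 in ventricles. Beta-catenin itself, Ctnnb1, read 10.06 in KO atria, 10.08 in WT atria, 10.11 in KO ventricles and 10.07 in WT ventricles, with almost no difference among the samples.

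Of the 6 lists, 4 held genes past 2-fold between chambers, at most 3 in a list, where the all-gene shares were 3.46% higher and 2.85% lower in the KO and 3.89% higher and 2.21% lower in the WT. Gpc3, a glypican that binds Wnt proteins at the cell surface, read 7.17 in KO atria against 5.87 in KO ventricles, and 7.45 in WT atria against 5.89 in WT ventricles. Lgr6, an R-spondin receptor, read 7.58 in KO atria against 6.03 in KO ventricles, and 7.43 in WT atria against 6.11 in WT ventricles. Daam2, a formin that binds Dishevelled, read 7.14 in KO atria against 5.51 in KO ventricles, and 7.16 in WT atria against 5.56 in WT ventricles. All of these were past 2-fold higher in atria in both genotypes. Wls, needed for Wnt secretion, read 8.91 in KO atria against 8.14 in KO ventricles, and 9.28 in WT atria against 8.27 in WT ventricles. The corepressor Tle1 read 5.90 in KO atria against 5.11 in KO ventricles, and 6.18 in WT atria against 5.17 in WT ventricles. Both had a ratio of 1.01 in the WT, just past 2-fold, and stayed short of it in the KO, Wls at 0.77 and Tle1 at 0.79. The ROR receptors of Wnt5a went opposite ways. Ror2 read 7.20 in KO atria against 5.89 in KO ventricles, and 6.66 in WT atria against 5.94 in WT ventricles. Ror1 read 6.44 in KO atria against 7.82 in KO ventricles, and 6.44 in WT atria against 7.31 in WT ventricles. Both were past 2-fold in the KO alone, Ror2 higher in atria by 1.30 and Ror1 lower, at -1.38, and whether the genotypes differ in these ratios could not be tested with 1 array each.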

How the data were processed

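RNA was extracted with Trizol, pooled from 7 mice per sample and labelled with the Ambion WT Expression Kit, per the labels' protocols. The deposited table held log2 intensities of 21212 probe sets on 4 arrays, made by the authors with RMA and affy per the submitters' processing notes. Tool versions and array design files are not given in the sources used here. Of the probe sets, 18786 had 1 symbol in the annotation (18775 named by gene number), 6 several and 2420 none, which left 18781 genes.

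Ratios are differences of log2 values. The alternatives were median centring, quantile normalization, lowess centring (fraction 0.3), no floor, a floor at the 75th percentile (7.27), other definitions of the level, and another fold. The calling step was checked on simulated data, with changes planted only in genes well above the floor. That check does not cover the levels of Sfrp5, Wif1 and Rspo1, which lie nearer to it. Python 3.11.15, pandas 2.3.3 and statsmodels 0.14.6 were used. The genes and lists were chosen with earlier results of these data known. Values on all arrays were given for genes past the fold in any comparison and the 3 highest by mean in each role, and for pathway genes past the fold. Other genes named with values, among them Wnt7a, Fzd1, Dkk2, Axin2 and Ctnnb1, were chosen after their values were seen. No test was run: with 1 array a group, ratios within a chamber or genotype have no replicate error, and an additive fit over the 4 arrays, which takes the genotype by chamber difference as error, was not made. All columns of the table belonged to the 4 samples.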

Additional observations from a re-analysis of the deposited data

Results flagged for a closer look

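Wif1 stood out because its KO to WT ratio had opposite signs in atria, 0.04, and in ventricles, -0.88, a difference of 0.92 on the log2 scale. The difference was not tested, since each group had 1 array. Both atrial arrays were below the floor, and the atrial ratio was -0.12 with lowess centring, so its sign turned.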

How the results depend on the processing

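Median centring, quantile normalization and lowess centring left the same genes past the fold in 3 comparisons, and in the KO chamber comparison Rspo1 dropped out under median and lowess centring. Of 72 ratios of the 6 genes past the fold under these scalings, 5 moved by more than 0.1 and 2, both of Rspo1, went under the fold with a smaller move, and no value past the fold changed sign. The atrial KO to WT ratio of Wif1, not past the fold, was -0.11 with quantile normalization. Without a floor, 2 genes were past the fold between KO and WT atria (Dkk2 added), and the medians became 0.13 there, 0.27 between KO atria and KO ventricles, and 0.045 between WT atria and WT ventricles. With the floor at the 75th percentile the counts were 0 in each genotype comparison and 1 in each chamber comparison (Dkk3), and the chamber medians were 0.093 in the KO and 0.035 in the WT. Over genes above the floor on all 4 arrays, chosen after seeing the data, they were 0.42 in the KO and 0.38 in the WT. At 2-fold the genotype counts were 0 in both chambers. At 1.5-fold the chamber counts were 7 in the KO and 10 in the WT. The mean of 4 arrays as the level left 0 genes in ventricles, and the brighter array as the level gave a KO chamber median of 0.47. No paired analysis was possible because the groups compared share only 1 replicate number. The number of arrays limits precision, and 27 of the 46 genes lay below the floor throughout.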
